A study of Oryza sativa with 6 samples.

Results

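The response of rice roots to hexavalent chromium, Cr(VI), at 24 h was set against their response within the first hours, gene by gene. The comparison is the log2 ratio of Cr(VI) over water on 3 arrays of the 24 h exposure minus the same ratio on 3 arrays of the short exposure. It takes in all 6 arrays of the series. Each array held, in Cy5, RNA from roots of 6-day-old seedlings of Oryza sativa cultivar TN-67 given 50 µM Cr(VI), and, in Cy3, RNA from roots of such seedlings kept in water. The treated roots were collected at 24 h for one exposure, and at 1 h and 3 h, pooled, for the short one. No array had its dyes swapped, and the labels call the 3 arrays of each exposure biological replicates. They do not say whether water control RNA was shared between arrays. All 24 h arrays lay on slide 3, short replicate 1 on slide 1 and short replicates 2 and 3 on slide 2, so slide and exposure coincide and cannot be told apart in any value below.

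Cr(VI) enters plant cells largely through sulfate transporters and is reduced inside the cell, a process that yields reactive oxygen. Roots answer heavy metals in an early phase of signalling and a later phase of altered metabolism, transport and growth. MicroRNAs are short RNAs that lower the transcripts they pair with. Several plant families follow the supply of a nutrient, such as miR399 with phosphate, miR395 with sulfate and miR408 with copper, and others set the level of transcription factors that control growth.

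The array covered 30218 genes, of which 23490 had enough signal to be tested: 23214 loci, 265 microRNA probes and 11 other probes. The files give the loci as numbers only. None of the 29689 locus numbers matched the table of gene symbols at hand, so the loci stay unnamed, the root and shoot marker lists could not be filled, and the labelled tissue was not checked. The microRNA probes are the gene families that carry names. The median spot signal was 293.5 to 365 for treated roots and 403 to 518.5 for water roots on the 24 h arrays, against 263 to 438.5 and 328 to 535.5 on the short arrays. The local background of the water channel was 38 to 40.5 on the 24 h arrays, against 36 to 73.5 on the short arrays, with both arrays of slide 2 above 71. Across genes, ratios correlated at 0.915 to 0.959 among the 24 h arrays, 0.881 to 0.922 among the short arrays, and 0.524 to 0.631 across the exposures. Genes do not count as independent replicates, and the number of arrays limits the precision.

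Most of the large differences between the exposures lay in the lower direction. At 24 h, 516 genes stood at least 2-fold higher relative to water than after the short exposure (2.2% of those tested), and 886 stood at least 2-fold lower (3.77%). These calls needed an adjusted p under 0.05 from limma, a linear model fitted over all genes, and an absolute log2 difference of at least 1. Without the demand on size, 3844 genes were higher (16.4%) and 5240 lower (22.3%). The split leans on the scaling: with each array centred on its median in place of loess, 1836 were higher and 6398 lower, and 424 and 1282 at 2-fold, while the median of all genes was at -0.17 in place of -0.03. Agilent's processed signals gave a more even 4055 higher and 4243 lower. Without the short arrays of slide 2, which leaves 1 short array, 1939 were higher and 2661 lower.

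**Figure D1:**
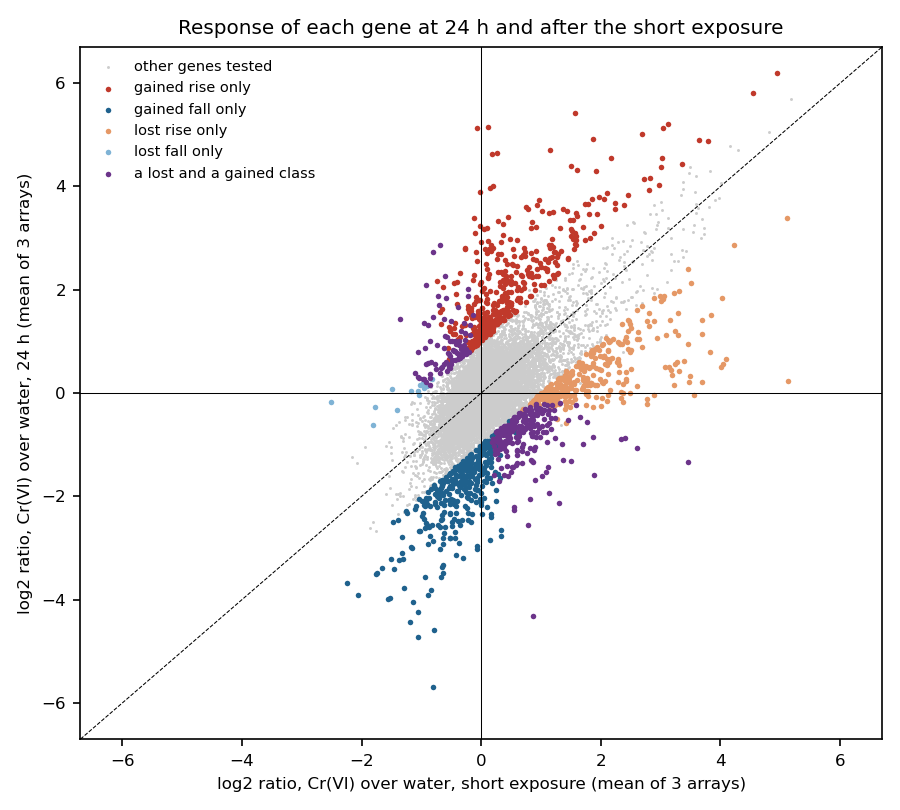
Mean log2 ratio of Cr(VI) over water at 24 h (vertical, 3 arrays) against that after the short exposure (horizontal, 3 arrays), 1 point per gene tested; colours mark the genes with a called difference of at least 2-fold, by response class. The dashed line is equal response, with the 516 higher genes above it and the 886 lower ones below.

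A response can be gained or lost, and can be a rise or a fall against water, which gives 4 classes among the 1402 genes with a 2-fold difference. A gained rise, a higher difference with a rise at 24 h, was found for 503 genes, with a median log2 ratio of 1.66 at 24 h against 0.14 after the short exposure. Of these, 196 had already risen after the short exposure, 222 had no call there and 85 had fallen. Their difference was at least 4-fold for 98 genes and at least 8-fold for 21. In 92, a channel stood at background level on every array of an exposure (below the scanner's well-above-background mark). For these only a bound on the size was measured. That held for 1796 of all 23490 genes tested. It held for 34 of the 536 lost rises, 17 of the 578 gained falls and 1 of the 98 lost falls. The filter on signal could be met by the 3 arrays at 24 h alone, so some of the 92 may have entered only where they were high.

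A gained fall was found for 578 genes, with a median of -1.37 at 24 h against 0.08 after the short exposure. After the short exposure 195 of them had fallen, 155 had no call and 228 had risen. A lost rise was found for 536 genes, with a median of -0.15 at 24 h against 1.18 after the short exposure. At 24 h 126 of them were still above water, 182 had no call and 228 were below it. The 228 are the same genes in both classes: they rose early and lay below water at 24 h.

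A lost fall was the rarest class, with 98 genes and a median of 0.76 at 24 h against -0.59 after the short exposure. At 24 h 85 of them were above water, 10 had no call and 3 were still below it. Counted by gene, 768 of the 1402 were in a gained class only, 321 in a lost class only and 313 in both. The 3 ratios at 24 h did not overlap the 3 short ratios for 1389 of the 1402, which their choice by this same test makes likely, and for 12332 of all genes tested.

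**Figure D2:**
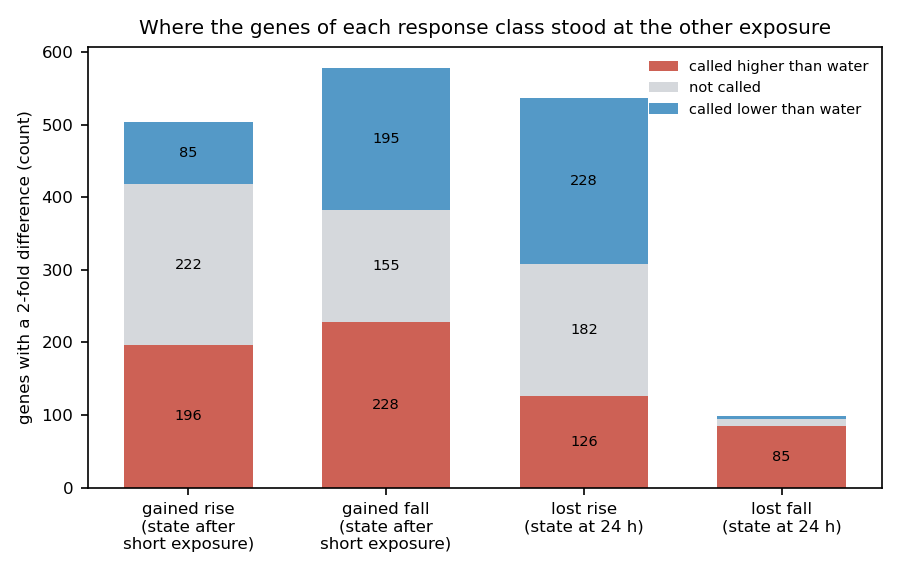
Number of genes in each response class (bars), divided by the call against water at the other exposure: the short exposure for gained responses, 24 h for lost ones. Of the lost rises, 228 lay below water at 24 h and 126 were still above it.

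The class sizes differed between alternatives. Agilent's own processed signals gave 941 genes higher and 1538 lower at 2-fold, and 355 lost falls in place of 98; the filter that asked for both channels on all arrays left 316 higher.

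For the genes with a 2-fold difference, the difference of ratios lay mainly in the Cr(VI) channel. Read alone, the treated roots were higher at 24 h for 4382 genes (18.7%) and lower for 4542 (19.3%), while the water roots were higher for 569 (2.42%) and lower for 496 (2.11%). Among genes with a 2-fold higher ratio, the median channel difference was 1.63 in treated roots and 0.25 in water roots. Among those with a 2-fold lower ratio it was -1.31 in treated roots and 0.01 in water roots. The treated channel moved the way of the ratio in all 503 gained rises and in 570 of the 578 gained falls. Its difference was larger than that of the water channel in 499 and 512 of them. These genes were chosen by the ratio of the same channels, which makes a shared direction likely, and the share over all genes was not counted. Among the called microRNA probes, the treated channel differed more in 13 of the 17 higher and 12 of the 20 lower ones. The water channel differed more in 4 and 8 of them. A channel read alone has no partner on its array to offset the slide, and the water counts rest on single arrays: limma called 0 genes in water roots without 24 h replicate 1, 24 h replicate 2 or short replicate 3 (4367, 4482 and 5258 at an unadjusted p under 0.05), and 3953 without short replicate 1. They were 87 higher and 18 lower without 24 h replicate 3, and 244 and 163 without short replicate 2. In whole roots, fewer cells of a type and less RNA per cell cannot be told apart.

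**Figure D3:**
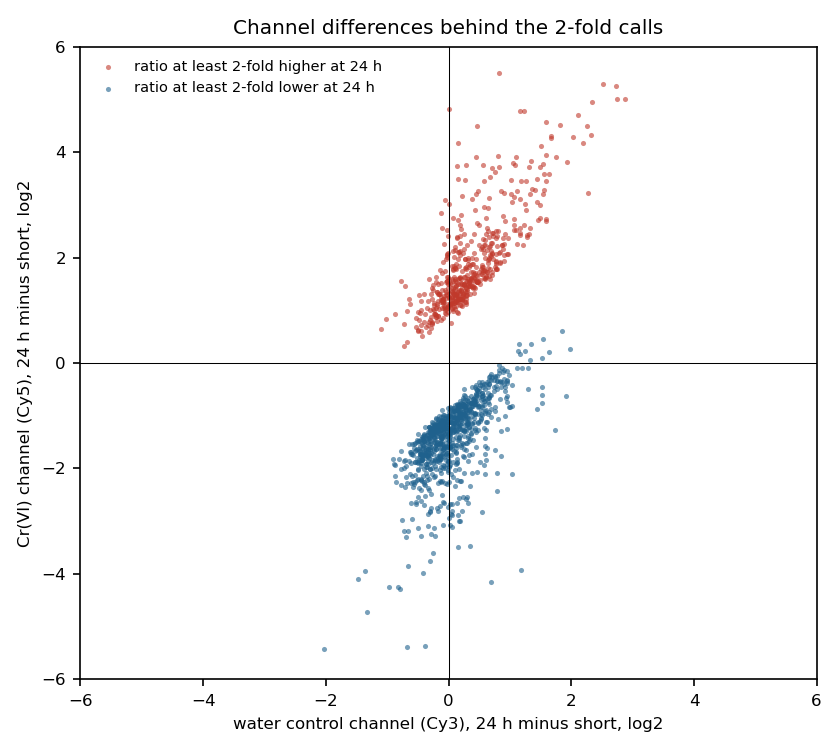
Difference between the exposures (24 h minus short, log2) in the Cr(VI) channel (vertical) and in the water channel (horizontal) for the 1402 genes whose ratio differed 2-fold. The red cloud of higher genes has a median of 1.63 in the Cr(VI) channel and 0.25 in the water channel, the blue cloud of lower genes -1.31 and 0.01.

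One locus from each class shows the values behind these counts. Each has the largest difference of its class among loci with both channels well above background on at least 2 arrays of each exposure, no overlap of the exposures, a 2-fold call that held without any 1 array, and no second class. The lost fall is the exception, since it is also a gained rise. They were chosen after their values were seen, and larger differences occur among loci that miss a condition. All 4 lie on chromosome 1. Os01g0836600, a gained rise, had log2 ratios of 2.65, 2.93 and 3.72 at 24 h, against -0.16, 0.20 and -0.35 after the short exposure. It was near water early and well above it at 24 h, with no overlap (difference 3.20, SE 0.26, limma adjusted p = 7.8e-05).

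Os01g0827300 lost a fall, with 2.41, 2.73 and 3.47 at 24 h, against -0.78, -0.06 and -1.25 after the short exposure. Its 24 h ratios were all above water, and of its short ratios, 1 was near 0 (difference 3.57, SE 0.33, limma adjusted p = 0.00014; short fall adjusted p = 0.034). The treated channel was higher at 24 h by 3.71 for Os01g0836600 and by 3.92 for Os01g0827300, and the water channel by 0.71 and 0.44.

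Os01g0303800 lost a rise, with 0.67, -0.17 and -0.63 at 24 h, against 2.86, 3.64 and 4.16 after the short exposure. Its 24 h ratios straddled water, and the short ones lay far above it (difference -3.60, SE 0.38, limma adjusted p = 0.00024). A second probe of this locus gave a difference of -3.38.

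Os01g0550800 gained a fall, with -4.67, -6.04 and -6.37 at 24 h, against -1.16, -0.42 and -0.86 after the short exposure. It was already below water early and far below it at 24 h (difference -4.88, SE 0.40, limma adjusted p = 7.8e-05). Its treated channel was lower by 4.16 on the log2 scale (difference -4.16), and its water channel differed by 0.69.

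Few of the named microRNA probes differed between the exposures. Of 265 tested, 17 had a higher ratio at 24 h and 20 a lower one, beside 16.4% and 22.3% of all genes. By limma 6 were 2-fold higher and none was 2-fold lower, beside 2.2% and 3.77% of all genes. Only a bound was measured for 48 of the 265, beside 1796 of the 23490 genes, and the background step shrinks dim ratios. A channel stood at background level in 4 of the 17 and 2 of the 20, so their calls carry no measured size. The median difference was -0.03, as for all genes. Called probes fell in 16 of 41 families: 7 families had higher calls only, 7 lower calls only and 2 both. Of the 17 higher probes, 11 had no call after the short exposure and 6 had risen already. Of the 20 lower ones, 7 had risen early and had no call at 24 h, 7 had no call early and lay below water at 24 h, 2 passed from a rise to a fall, 2 that had fallen early fell further, and 2 had no call at either exposure. Each called probe is 1 of up to 3 kinds for a precursor, which the files tag 5'seq, 3'seq and Mature. The files used here do not state which transcript each reads, and mature microRNAs of one family are nearly alike in sequence, so probes of a family are not independent.

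The largest gains with a measured size were in miR399, the family induced by low phosphate, which targets the PHO2 ubiquitin-conjugating enzyme. The miR399i Mature probe had log2 ratios of 2.33, 2.80 and 3.48 at 24 h, against 0.01, 0.57 and -0.10 after the short exposure. The miR399b 3'seq probe had 2.08, 2.71 and 3.57 at 24 h, against 0.11, 0.23 and 0.05. Both were near water early and high on every 24 h array (differences 2.71, SE 0.28, and 2.65, SE 0.31; limma adjusted p = 0.00023 and 0.00038). They differed in the treated channel by 4.31 and 3.13, and in the water channel by 1.67 and 0.66. Of the 13 miR399 probes tested, these 2 were higher, beside 16.4% of all genes, so the family as a whole did not stand out by its count. The other 11 had no call, and the median of the 13 was -0.01.

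The copper-regulated miR408, which targets plantacyanin and laccase transcripts, was higher on all 3 of its probes. The 5'seq probe had 1.00, 1.70 and 1.66 at 24 h, against -0.39, -0.18 and -0.20 after the short exposure (difference 1.70, SE 0.18, limma adjusted p = 0.00024). The Mature probe had 0.74, 1.13 and 1.27, against 0.14, 0.17 and 0.18, and the 3'seq probe 0.79, 1.06 and 1.11, against 0.45, 0.39 and 0.42. All 3 separated the exposures on every array, with differences of 0.88 for Mature and 0.57 for 3'seq. For the 5'seq probe the treated channel was higher by 0.64 and the water channel lower, at -1.10, so that the water roots differed more than the treated ones. The 3'seq call was lost under median centring (0.30, adjusted p = 0.14), and the Mature difference was 1.45 with Agilent's processed signals.

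The miR528 5'seq probe, of a family found in monocots, had 1.35, 1.51 and 1.30 at 24 h, against -0.01, 0.03 and 0.01 after the short exposure. It was flat early and raised on every 24 h array (difference 1.38, SE 0.08, limma adjusted p = 2.8e-05). The miR528 3'seq probe had 3.23, 3.29 and 3.16 at 24 h, but both channels stayed at background level on all short arrays. It entered the test only through the 24 h arrays where it was high. Its difference passed (limma adjusted p = 1.0e-06) without a measured size, and this p-value does not measure the difference. The Mature probe did not pass (difference 0.29, adjusted p = 0.063). The laccase-targeting miR397 had 1 called probe, miR397a 3'seq, which also passed without a measured size (adjusted p = 0.0018). In miR398, whose targets in other plants include transcripts of copper/zinc superoxide dismutase, neither probe passed (differences 0.27 and 0.11, adjusted p = 0.067 and 0.44).

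miR160 targets auxin response factors, and the 2 ends of miR160e moved in opposite ways. The 3'seq probe had 1.47, 1.67 and 2.07 at 24 h, against 0.27, 0.22 and 0.16 after the short exposure. The 5'seq probe had -0.55, -0.10 and -0.36 at 24 h, against 0.05, -0.01 and -0.01. The first was high on every 24 h array, and the second was below its short ratios on every 24 h array, though near them on 1 (differences 1.52, SE 0.14, adjusted p = 0.00014, and -0.35, SE 0.12, adjusted p = 0.042, by limma). The 5'seq call was kept in only 1 of the 6 fits that left out 1 array. Among 70 precursors with both end probes tested, 49 differed in the same direction at both ends, 8 had both ends called the same way, 7 had 1 end called, 54 had none, and miR160e was the 1 called both ways.

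Smaller gains were measured for miR156, miR531 and others. In miR156, which targets SPL transcription factors of developmental timing, 3 of 22 probes were higher and 1 was lower. Of all genes, 16.4% were higher and 22.3% lower. The miR156l 5'seq probe had 0.54, 0.55 and 0.55 at 24 h, against 0.10, 0.09 and 0.13 after the short exposure, a small but even separation (difference 0.44, limma adjusted p = 0.0019). The miR156k 5'seq probe was lower, at -0.45, and its call was kept in 2 of the 6 fits that left out 1 array. Of 4 miR531 probes, 3 were higher, with differences of 0.40 to 0.57, and none of these calls held under median centring or without the short arrays of slide 2. The miR156l and miR156b 3'seq probes passed without a measured size, and their calls were kept in 6 and 1 of the 6 fits that left out 1 array. The miR442 3'seq difference of 0.37 was kept in 3 of the 6 fits that left out 1 array, and the miR414 5'seq difference of 0.22 in none of them.

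**Figure D4:**
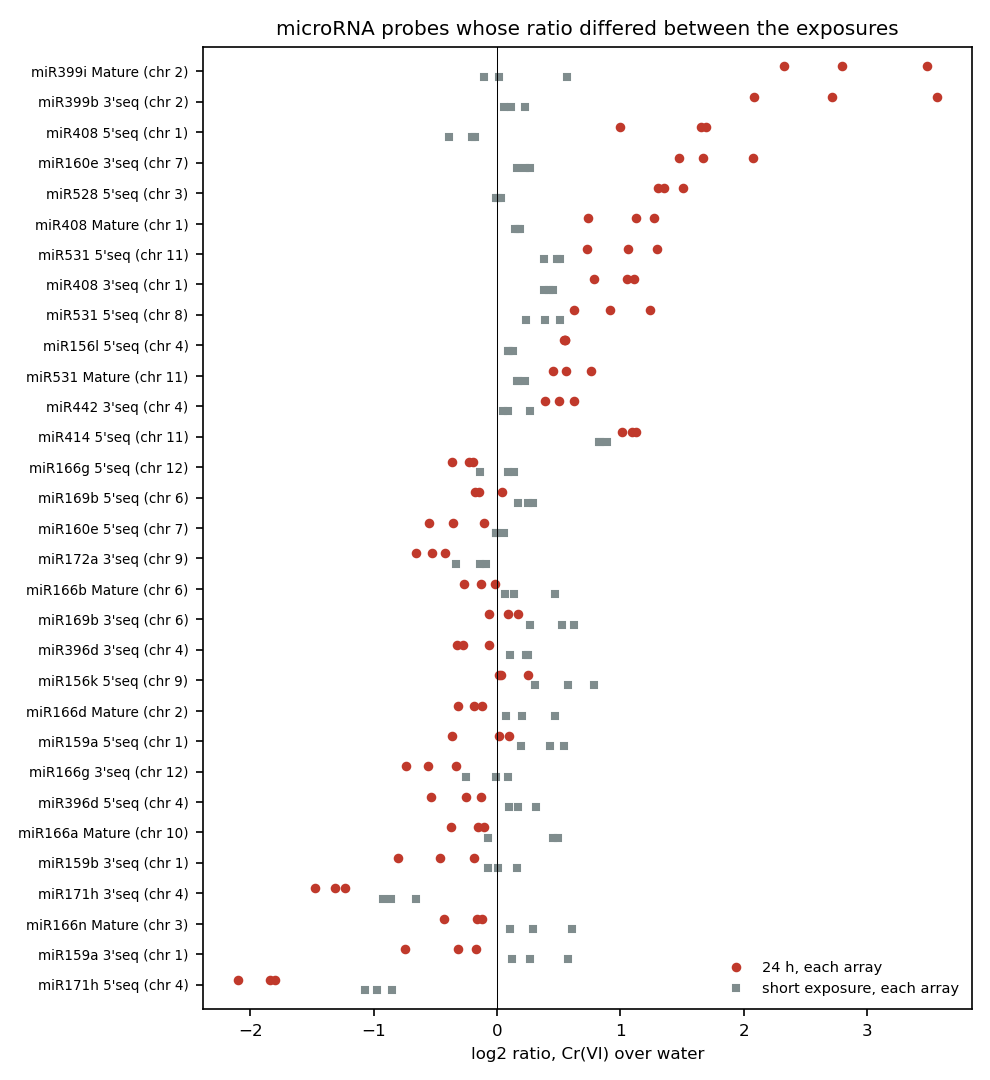
Log2 ratio of Cr(VI) over water on each array for the microRNA probes with a called difference and a measured size, ordered by the difference; circles are the 3 arrays at 24 h, squares the 3 short arrays. miR399, miR408, miR160e and miR528 probes lead the gains, and the lower probes differ by less than 1 on the log2 scale.

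The strongest lower probes were those of miR171h, from a family that acts on GRAS transcription factors in meristems. The 5'seq probe had -2.10, -1.80 and -1.84 at 24 h, against -1.07, -0.85 and -0.97 after the short exposure. The 3'seq probe had -1.48, -1.31 and -1.23 at 24 h, against -0.92, -0.65 and -0.86. Both were below water early and lower still on every 24 h array (differences -0.95, SE 0.11, and -0.53, SE 0.10; limma adjusted p = 0.00033 and 0.0046). The differences were larger, -1.43 and -1.41, with Agilent's processed signals. The miR171h Mature probe did not pass (difference -0.22, limma adjusted p = 0.40). In all, 3 of 19 miR171 probes were lower, beside 22.3% of all genes.

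The miR159 family, which targets GAMYB transcription factors, was lower on 3 of 10 probes, beside 22.3% of all genes. The miR159a 3'seq probe had -0.74, -0.32 and -0.17 at 24 h, against 0.27, 0.58 and 0.12 after the short exposure, above water early and below it later (difference -0.73, SE 0.17, limma adjusted p = 0.0092). The miR159a 5'seq and miR159b 3'seq probes differed by -0.47 and -0.51. The miR396d 5'seq and 3'seq probes, of a family that targets growth-regulating factors, differed by -0.50 and -0.42, and their short and 24 h ratios lay on opposite sides of water on every array.

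Of miR166, which targets HD-ZIP III transcription factors of vascular and leaf patterning, 6 of 30 probes were lower and none was higher. Of all genes, 22.3% were lower and 16.4% higher. The miR166n Mature probe had -0.43, -0.16 and -0.12 at 24 h, against 0.10, 0.61 and 0.29 after the short exposure (difference -0.57, SE 0.14, limma adjusted p = 0.013). Of the 8 Mature probes tested, all lay below 0 in their difference and 4 passed, at -0.57 to -0.37. In these 4 the treated channel differed by 0.03 to 0.24 and the water channel by 0.54 to 0.58, so the ratio was lower at 24 h while the treated signal was not. The other 2 calls were the miR166g 3'seq and 5'seq probes, at -0.48 and -0.29. The family count was 1 without 24 h replicate 1 and 1 without the short arrays of slide 2.

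The remaining lower probes were both ends of miR169b, from a family that targets NF-YA factors (-0.41 and -0.33), miR172a 3'seq, from a family that targets AP2 factors (-0.35), and the miR164f 3'seq and miR171e Mature probes, which passed without a measured size. None of these 5 calls held in every fit that left out 1 array. Of 14 families with at least 5 tested probes, 5 had no call, among them miR395, whose 29 probes differed by -0.32 to 0.10, miR439 with 13 probes and miR167 with 6. miR395 targets ATP sulfurylase and a sulfate transporter. miR168, which acts on ARGONAUTE transcripts and so on the microRNA pathway itself, was another of the 5 families, with 5 probes.

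Calls without 1 array separate these probes. Of the 17 higher probes 13, and of the 20 lower probes 6, kept their call in each of the 6 fits that left out 1 array. The 13 include miR528 3'seq, miR397a 3'seq and miR156l 3'seq, which had no measured size, so their kept calls do not measure a difference. The 6 lower probes were the miR171h and miR396d pairs, miR159a 3'seq and miR166n Mature. Without 24 h replicate 1, 14 of the 17 and 7 of the 20 kept it, and without short replicate 3, 13 and 9. Without both short arrays of slide 2, 9 and 2 kept it, the 2 being miR171h 5'seq and miR166g 3'seq.

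Loci with a 2-fold difference had a neighbour of the same call more often than all loci did, though most stood alone. Of the 510 loci that were 2-fold higher, 64 (12.5%) had a next tested locus along the chromosome that was also 2-fold higher, against 4.27% of all loci tested. Of the 886 loci that were 2-fold lower, 166 (18.7%) had such a neighbour, against 7.44% of all loci. Gained falls had one for 17.5%, against 4.86% of all loci, and lost falls for 0 of 98, against 0.84%. Neighbouring loci are often copies of one gene whose probes can share signal, which was not tested here.

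There were 7 runs of at least 3 such loci in a row among the higher ones, with 26 loci, and 9 among the lower ones, with 28. The longest was a run of 6 loci on chromosome 7, all gained rises, with differences of 1.17 to 2.71. Their mean ratios were 1.16 to 2.78 at 24 h, against -0.12 to 0.40 after the short exposure. Short replicate 2 stood well above the other short arrays at the last 4 of the 6 loci and slightly above them at the first. At 1 locus, 24 h replicate 3 had no value. All 6 loci kept their call without any 1 array.

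A run of 4 gained rises lay on chromosome 3, with mean ratios of 1.75 to 2.63 at 24 h, against 0.42 to 0.82 after the short exposure. A run of 4 gained falls lay on chromosome 4, with -1.84 to -1.55 at 24 h, against -0.48 to -0.18. In a second run of 4 on chromosome 7, 1 locus was only a bound, and the ratios of the short arrays spread from -1.30 to 0.75 with replicate 2 highest at all 4 loci. The call of the third locus (difference 1.62, limma adjusted p = 0.026), whose exposures overlapped on 1 pair of arrays, was kept in 2 of the 6 fits that left out 1 array, and that of the last locus in 5. A run of 3 lost rises on chromosome 6, 1 of them also a gained fall, had differences of -4.90 to -3.48, the largest lower ones of any run. Its mean ratios were -1.34 to 0.23 at 24 h, against 3.46 to 5.13 after the short exposure. 24 h replicate 1 stood above the other 24 h arrays at all 3 loci. At the last locus, with -4.90, the treated channel was not well above background on every 24 h array, which limits how well that size was measured. A run of 3 gained rises on chromosome 3 differed by 4.39 to 5.05, but all 3 were only a bound. A run of 3 loci on chromosome 7 lay at -1.94 to -1.30 at 24 h, against at least 1.13 after the short exposure. Each of them was both a lost rise and a gained fall. 24 h replicate 3 lay lowest at all 3 loci, at -3.30 to -2.71, against -1.47 to -0.18 on the other 24 h arrays. Short replicate 1 lay lowest of the short arrays at all 3, at 0.21 to 0.81.

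**Figure D5:**
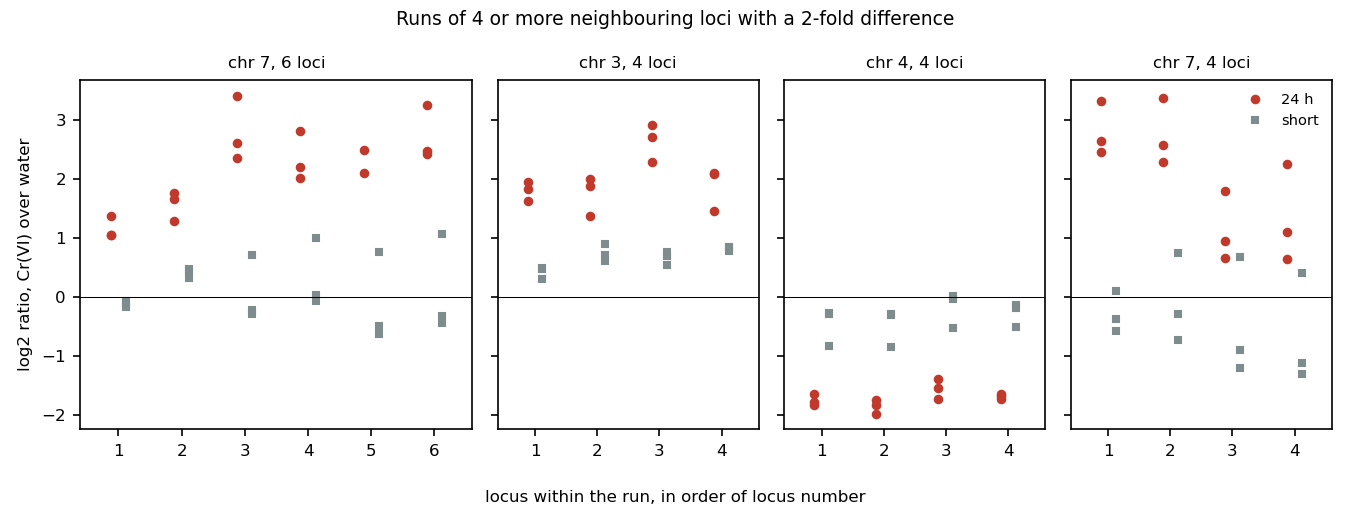
Log2 ratio of Cr(VI) over water on each array for the loci of the 4 runs of at least 4 neighbouring loci with a 2-fold difference, in order along the chromosome; circles are 24 h arrays, squares short arrays. The 2 runs on chromosome 7 and the run on chromosome 3 lie higher at 24 h, and the run on chromosome 4 lies lower, at -1.84 to -1.55 on average.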

How the data were processed

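Per the file headers, the scanner files come from Agilent Feature Extraction (version 10.7.1.1) and hold an intensity for each spot and its local background, here read as pixel medians. Their deposited log10 ratio column was not used. A deposited log2 table of the whole series equals processed red over green signal and served as an alternative. From the median signals, background was corrected with normexp (offset 50) and ratios by loess, where control and outlier spots had weight 0 (limma 3.58.1, R 4.3.3). Of several probes of a locus the brightest was kept. Genes entered the test with at least 2 values per exposure and 1 channel or the other well above background on 3 of the 6 arrays or more. One limma model with 4 residual degrees of freedom gave the mean ratio of each exposure and the difference, and p-values were adjusted by Benjamini-Hochberg over the 23490 genes. Each channel was compared alone after quantile normalization. The offset shrinks the ratios of dim genes. Alternatives changed the background step, the scaling, the filter, the choice of probe, the variance model, the array weights or the blocks, or left out arrays.

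The members, gene lists and tests were chosen with earlier results of these data known. Of 94 gene lists written as patterns over gene descriptions, 0 could be filled, since 0 of 29689 locus numbers and 0 of 37365 sequence accessions matched the reference table. The rule for named genes asked for a description, so no locus met it; 1 locus per response class was taken instead, after values were seen, and every called microRNA probe is given. Chromosomes are those written in locus and probe names. The pipeline was checked on simulated data.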

Additional observations from a re-analysis of the deposited data

Results flagged for a closer look

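The test of the difference between the exposures itself marked the following results. By limma, 3844 genes had a higher ratio at 24 h and 5240 a lower one. Among loci, the difference was 3.20 for Os01g0836600, 3.57 for Os01g0827300, -3.60 for Os01g0303800 and -4.88 for Os01g0550800. Among microRNA probes, miR399i Mature differed by 2.71 and miR399b 3'seq by 2.65. The miR408 5'seq probe differed by 1.70, and the miR160e 3'seq probe by 1.52. For miR528 5'seq the difference was 1.38. Slide and exposure coincide in every one of these values and cannot be told apart. With 3 arrays per exposure, no single array was tested for standing apart.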

How the results depend on the processing

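The 4 named loci kept their call under every alternative that gave a value. The 6 fits that left out 1 array do not test this, since a kept call there was a condition of their choice. Os01g0836600 and Os01g0827300 gave no value where both channels had to be well above background on all arrays. Of the 1402 genes with a 2-fold difference, 1376 to 1393 were called the same way without 1 array, and 1302 without the short arrays of slide 2. Leaving out 1 array gave 2824 to 3483 genes higher and 4034 to 4819 lower, 492 to 556 and 874 to 939 at 2-fold, 473 to 537 gained rises, 481 to 576 lost rises, 561 to 603 gained falls and 70 to 136 lost falls. It gave 3103 to 4857 higher and 3134 to 4891 lower in the treated channel, and 0 to 1830 higher and 0 to 2123 lower in the water channel by limma, where 3 of the fits called 0 genes (4367, 4482 and 5258 at an unadjusted p under 0.05). Without the short arrays of slide 2, 1939 genes were higher and 2661 lower, with 2776 higher in the treated channel and 140 higher and 150 lower in the water channel; that fit has 1 short array, assumed to vary like the 24 h arrays. Median centring gave 1836 higher and 935 gained falls, and turned miR414 5'seq to -0.021 (adjusted p = 0.92). Agilent's processed signals gave 941 higher and 1538 lower at 2-fold, 807 gained rises, 1029 gained falls and 355 lost falls, and the values deposited for the series gave 940, 1539, 807, 1029 and 355. Asking for both channels well above background on all arrays left 316 higher at 2-fold and 304 gained rises, of 17902 genes tested. The cause of these shifts was not tested, except that the last alternative tested fewer genes. Slide as a random block had an estimated correlation of -0.11, and a negative value makes no allowance for slide effects. The replicate numbers showed no positive pairing: same-numbered arrays correlated at -0.24, -0.12 and -0.10 in their deviations, and the other pairs at -0.02 to 0.12. With 3 arrays per exposure these values cannot settle whether the arrays were paired. With the replicate block 3046 genes were higher and 4422 lower, 518 and 888 at 2-fold, and 7 microRNA calls were lost, miR156b 3'seq among them (adjusted p = 0.071). Counts per gene list were not run, since no list could be filled.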

Other observations

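The shares of 2-fold loci per chromosome lay around those of all loci, 2.2% higher and 3.82% lower, and their variation was not tested. Of the loci tested per chromosome, 1.61% (chromosome 6) to 2.86% (chromosome 7) were higher at 24 h than after the short exposure, and 3.05% (chromosome 9) to 5.02% (chromosome 10) were lower. Gained falls made up 3.74% of the loci tested on chromosome 10 and 1.52% on chromosome 9, against 2.49% of all loci. By kind of evidence, loci known from gene models were 2-fold higher for 2.71% and lower for 3.98%, against 2% and 3.75% of loci with an mRNA. The gene-model loci were also dimmer, with a median log2 water signal of 8.62 against 9.48. Where a locus had at least 2 measured probes, the probes differed in the same direction for 128 of 130 loci that were 2-fold higher and 260 of 268 that were lower, against 4923 of 6234 of all such loci.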
